A study of Papio anubis with 24 samples.

Results

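The comparison set the endometriotic lesion of each of 4 baboons (Papio anubis) with spontaneous endometriosis against the eutopic endometrium of the same animal, the lining of the uterus itself, by sequencing small RNA from both tissues. It took 8 of the 24 libraries of the series. The other 16 came from 8 animals whose disease had been induced by placing menstrual tissue in the peritoneal cavity, sampled 15 months later. The 4 spontaneous animals, PA5655, PA6303, PA6627 and PA6762, developed the disease without that procedure according to their group label, although a general treatment label names induction for every sample. The study describes the lesions of its baboons as mostly peritoneal. The site in each animal, the stage of the lesion, the duration of disease, the age and the phase of the cycle of the spontaneous animals could not be taken from the labels or the methods. Of 2656 mature miRNAs in the count table, 485 reached 2 CPM, counts scaled to a common library size, in at least 2 of the 8 libraries, and these are described here.

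miRNAs are short RNAs that guide Argonaute proteins to partly complementary sites in mRNAs and lower the stability or translation of those mRNAs. Many are made in few cell types, so that a bulk library of a lesion carries miRNAs of glands, stroma, muscle, vessels and blood side by side. In such a library, fewer cells of a type and less of the miRNA per cell cannot be told apart. Endometriotic lesions hold glands and stroma resembling endometrium, embedded in tissue of the peritoneum or pelvic organs, often with fibrosis, blood and inflammatory cells.

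Library totals were 3527543 to 6650650 counts in the 4 lesions and 3014048 to 3935626 counts in the 4 eutopic endometria, and 603 to 740 and 625 to 673 miRNAs had a count. A level of 3 counts lay at 0.451 to 0.850 CPM in lesions and 0.762 to 0.995 CPM in eutopic endometria, before scaling and for counting error only. Of the 485 miRNAs, 395 reached 2 CPM in at least 2 libraries of both tissues, 16 in lesions only, 62 in eutopic endometria only and 12 in 1 library of either; 315 reached it in all 8. Of the miRNAs named below, miR-34b-5p, miR-223-5p, miR-615-3p, miR-138-5p and miR-655-3p reached it through the lesions only, and miR-200a-5p, miR-200b-5p, miR-183-3p, miR-577, miR-449b-5p and miR-210-5p through the eutopic endometria only. Such miRNAs could be tested only where they were high in that tissue, so that their levels and fold changes are given as a description. Some of them also enter the counts of calls and the comparison between diseases below, where that limit holds too. Levels below are CPM after scaling by edgeR's TMM factors, which ranged from 0.605 to 1.33 in lesions and from 0.845 to 1.73 in eutopic endometria. They compare 1 miRNA between libraries, since different miRNAs are captured with unequal efficiency. Where 4 values follow each other, they stand in the order PA5655, PA6303, PA6627 and PA6762.

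Of the 485 miRNAs, 1 passed the test, miR-451a. This is 0.206% of those tested (edgeR quasi-likelihood test blocked by animal, Benjamini-Hochberg adjusted p under 0.05). Without adjustment 90 had a p under 0.05. At an adjusted p under 0.1 there were 24, of which 8 were higher and 16 lower in lesions. The median log2 fold change over all 485 was −0.09, and the median standard error was 0.48. Within animals, 72 miRNAs (14.8%) were higher in the lesion of all 4, 88 (18.1%) were lower in all 4, and 325 varied in direction. All 4 lesions lay above all 4 eutopic endometria for 21 miRNAs (4.33%) and below them for 37 (7.63%). The edgeR-robust procedure, which the study used, here called 17 miRNAs higher (3.51%) and 28 lower (5.77%). These counts are not the study's own, which reported more differing miRNAs for spontaneous lesions, out of a larger set. The cause of that gap was not tested. DESeq2 called 48, of which 41 were also called by edgeR-robust. An exact sign-flip permutation of 4 pairs has 16 sign patterns, so that its smallest two-sided p is 0.13 (2 of 16), which every miRNA with 1 direction in all 4 animals reached.

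Scaling by library totals alone moved the median log2 fold change of all 485 to −0.65. With it the same test called 14 miRNAs, 0 higher and 14 lower, and the miRNAs with 1 direction in all 4 animals were 16 higher and 144 lower, in place of 72 and 88. The muscle-enriched miR-143-3p alone took 49.9, 24.5, 13.9 and 48.9% of the lesion counts, against 31.0, 24.9, 10.1 and 10.7% of the eutopic counts. Both scalings gave the same sign for the miRNAs and list medians below, apart from the following and miR-499a-5p, which was not compared. With library totals miR-144-3p, miR-652-3p, miR-10a-5p, miR-342-3p and miR-140-3p were negative. So were the medians of the let-7, miR-30 and HOX lists (−0.42, −0.45 and −0.40).

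All 5 measured miRNAs of red blood cells had a positive log2 fold change, against 222 of all 485 miRNAs. Of the 5, 1 passed the test, against 0.206% of all miRNAs. In the lesion of all 4 animals 3 were higher, against 14.8% of all miRNAs. Of the 5, 1 had reached the level for testing through the lesions only, so that a higher lesion was favoured by its selection. miR-451a, which matures through Argonaute2 without Dicer and accumulates in erythroid cells, stood at 254, 71.9, 10323 and 224 CPM in the lesions, against 56.8, 16.6, 2730 and 52.2 CPM in the eutopic endometria. Both tissues of PA6627 held far more of it than those of the other animals, so that the groups overlapped, while within each animal the lesion was higher by 2.16, 2.10, 1.92 and 2.10 on the log2 scale. The log2 fold change was 2.07 (standard error 0.27, 95% interval 1.45 to 2.70, adjusted p = 0.0456, edgeR). With any 1 animal left out it stayed between 2.02 and 2.15, with an adjusted p of 0.0550 to 0.183, so that the call was lost each time.

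miR-486-5p, a second erythroid miRNA that is also made in muscle, stood at 759.6, 778, 30970 and 1436 CPM in the lesions, against 216, 189.7, 15752 and 286 CPM in the eutopic endometria. It was higher in the lesion of all 4 animals, least in PA6627, where both tissues held by far the most of it. Its fold change was 1.79 on the log2 scale (standard error 0.32, adjusted p = 0.0643, edgeR). miR-144-5p, from the same transcript as miR-451a, had 11.5, 4.70, 181 and 6.96 CPM in lesions and 3.28, 0.903, 178 and 1.76 CPM in eutopic endometria. It was higher in the lesion of 3 animals by 1.74 to 2.13 on the log2 scale and by 0.02 in PA6627. Its other strand, miR-144-3p, was higher in 2 animals and lower in 2 (log2 fold change 0.37, standard error 0.45), and at −0.17 with library totals. Over the 5 erythroid miRNAs the median log2 fold change was 1.40. Their summed level was 862 to 41818 CPM in lesions and 213 to 18954 CPM in eutopic endometria, and none was at 0 in a lesion. How far blood in the tissue enters the other differences was not tested.

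miRNAs of epithelium were lower in the lesions. This held for all 17 measured members of 3 lists (the miR-200 family, the cluster of miR-183, miR-96 and miR-182, and other epithelial miRNAs), and 15 of the 17 were lower in all 4 animals, against 18.1% of all miRNAs. None of the 17 passed the quasi-likelihood test, while edgeR-robust and DESeq2 each called 14 of them lower, against 5.77% and 5.36% of all miRNAs. The quasi-likelihood test called 12 of the 17 when fitted over all 24 libraries (3.61% of all called lower) and 11 with library totals (2.89%). Of the 17, 5 had reached the level for testing through the eutopic endometria only, so that a lower lesion was favoured by their selection. They include miR-200a-5p and miR-577, called over all 24 libraries, and miR-200b-5p and miR-577, called with library totals. Of the 12 members that had reached the level in both tissues, 11 were lower in all 4 animals, and edgeR-robust and DESeq2 each called 11. The miR-200 family, which represses ZEB1 and ZEB2 and so maintains epithelial identity, had a median log2 fold change of −3.51 over its 8 measured members, with a range from −4.03 to −3.13. For all 8, every lesion lay below every eutopic endometrium, against 7.63% of all miRNAs. Of these 8, 6 had reached the level for testing in both tissues and 2 through the eutopic endometria only.

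miR-141-3p, the most abundant member of the family, stood at 548, 486, 1625 and 147 CPM in lesions, against 4306, 8611, 4275 and 3232 CPM in eutopic endometria. The highest lesion, that of PA6627, held less than the lowest eutopic endometrium, that of PA6762. This was a difference of −3.28 in log2 (standard error 0.58, adjusted p = 0.0643, edgeR). miR-200b-3p had 32.4, 8.40, 92.8 and 7.21 CPM in lesions and 145, 616, 411 and 399 CPM in eutopic endometria (log2 fold change −4.03, standard error 0.94, adjusted p = 0.0870, edgeR). Its pair differences were −2.16 and −2.15 in PA5655 and PA6627, and −6.16 and −5.75 in PA6303 and PA6762. The median of the family was likewise further from 0 in PA6303 and PA6762, at −2.49 in PA5655, −5.14 in PA6303, −1.44 in PA6627 and −4.90 in PA6762. miR-200a-3p, miR-200c-3p and miR-429 lay at −3.38, −3.89 and −3.72. The passenger strands miR-141-5p, miR-200a-5p and miR-200b-5p lay at −3.29, −3.13 and −3.64, although miR-200b-5p had 0 counts in the lesions of PA5655 and PA6762.

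The cluster of miR-183, miR-96 and miR-182, made as 1 transcript and known from sensory organs, had a median log2 fold change of −2.80. Each of the 4 members of the cluster was lower in all 4 animals, against 18.1% of all miRNAs. Of the 4, 1 (miR-183-3p) had reached the level for testing through the eutopic endometria only, so that a lower lesion was favoured. miR-182-5p, the most abundant member of the cluster, stood at 193.996, 229, 843 and 79.6 CPM in lesions, against 1313, 2523, 2432 and 3267 CPM in eutopic endometria. The groups did not overlap, and PA6762 had both the lowest lesion and the highest eutopic endometrium. The fold change was −3.24 on the log2 scale (standard error 0.66, adjusted p = 0.0728, edgeR). miR-183-5p and miR-96-5p lay at −2.91 and −2.69. miR-183-3p was at or below 1.91 CPM in every library, with 0 counts in the lesions of PA5655, PA6303 and PA6762.

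Among the other epithelial miRNAs, miR-375-3p, known from endocrine and glandular cells, had the largest negative difference of all 485. It stood at 25.02, 23.0, 13.2 and 6.22 CPM in lesions, against 137, 887, 619 and 66.3 CPM in eutopic endometria. The lesions lay in a narrow range while the eutopic endometria of PA6303 and PA6627 were several times above those of PA5655 and PA6762. In log2 this was −4.20 (standard error 0.67, adjusted p = 0.0643, edgeR). miR-203a-3p, which represses p63 in differentiating squamous epithelium, had 16.4, 8.65, 54.6 and 3.48 CPM in lesions and 76.5, 298, 280.0 and 108 CPM in eutopic endometria (log2 fold change −3.62, standard error 0.68). miR-577 had at most 2.32 CPM in a lesion and 2.95 to 20.97 CPM in eutopic endometria (−3.69). miR-31-5p differed little in PA6627, with 532 CPM in the lesion and 515 CPM in the eutopic endometrium, and was lower in the lesion of the other 3 animals (−1.26, standard error 0.72).

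**Figure D1:**
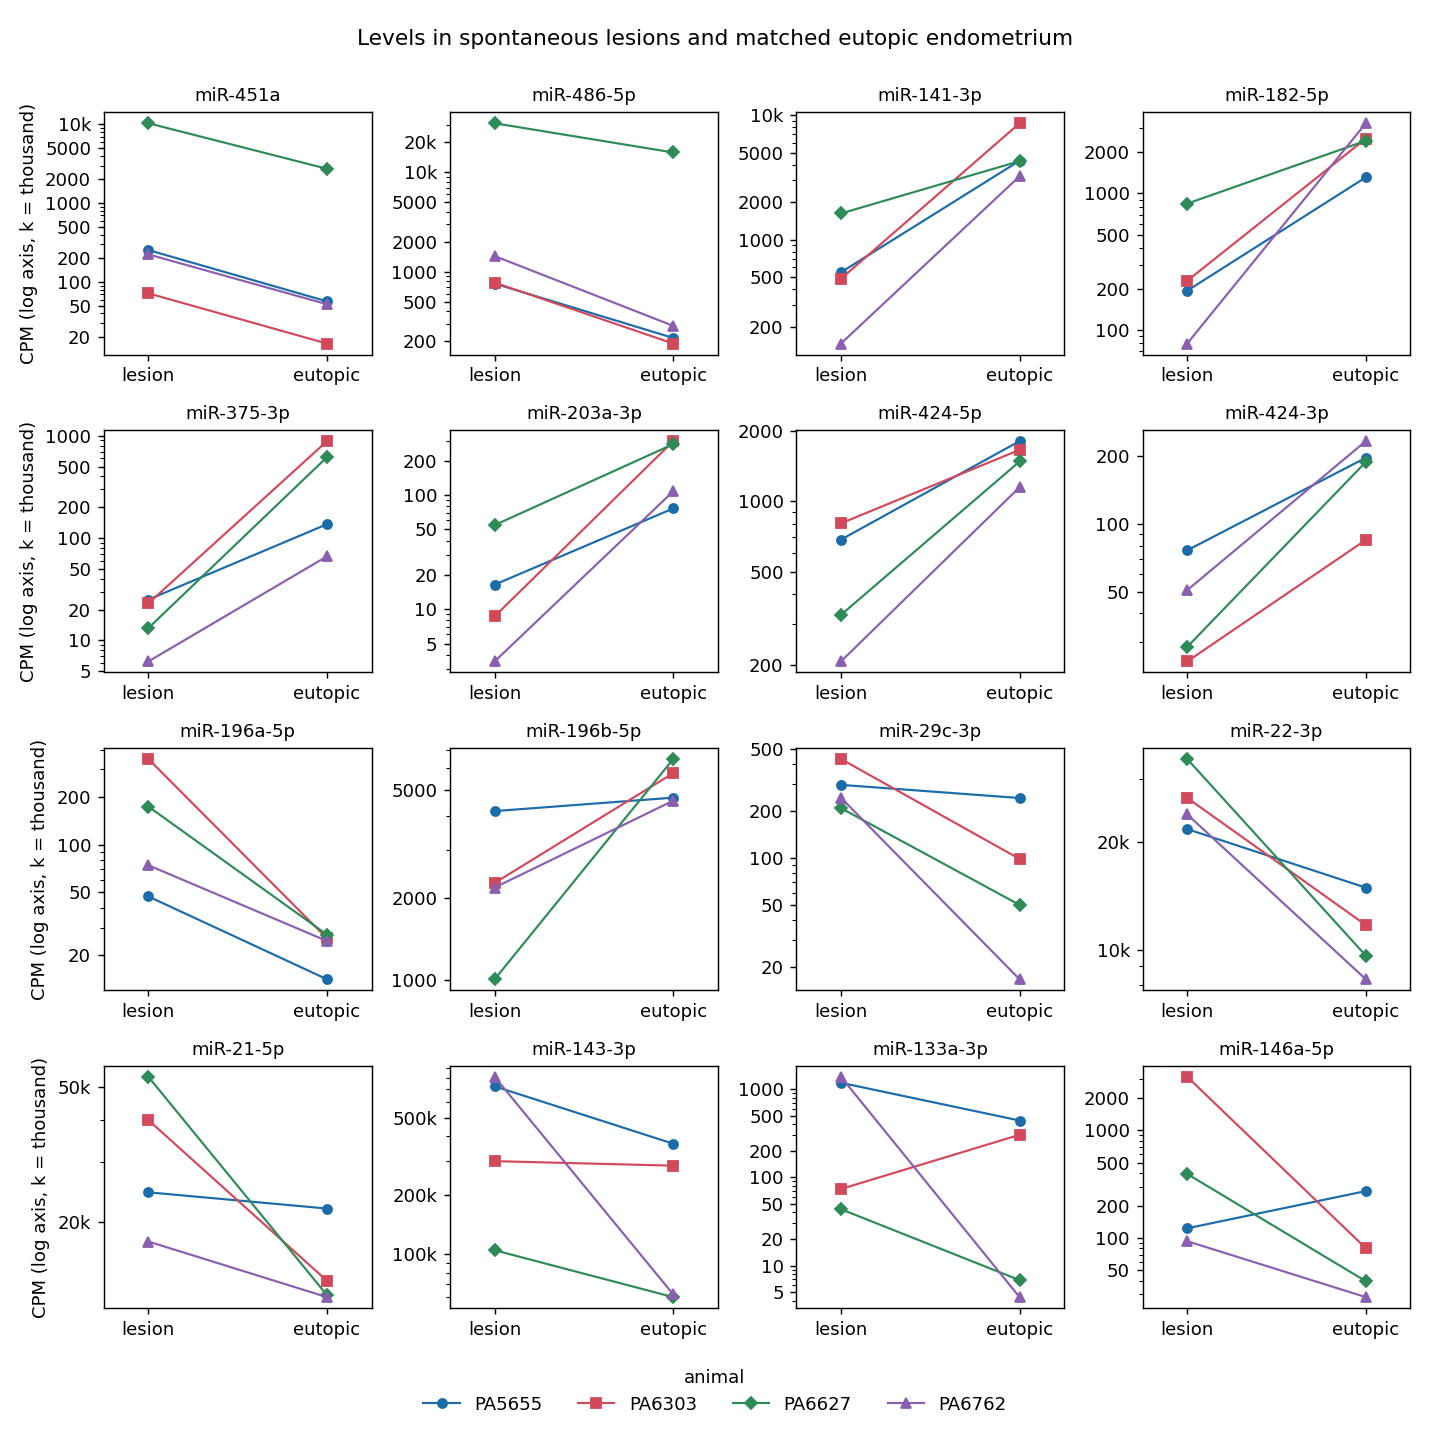
CPM of 16 miRNAs (log axes, TMM-scaled) in the lesion (left) and the eutopic endometrium (right) of each spontaneous animal, joined by a line per animal. The lines of miR-451a run nearly parallel, at differences of 1.92 to 2.16 on the log2 scale, while those of miR-133a-3p and miR-146a-5p cross.

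The fold changes of the 4 measured miRNAs of ciliated cells did not share 1 sign. Selection favoured the sign of miR-449b-5p and of miR-34b-5p, and miR-449a and miR-34c-5p varied in direction between animals. miR-449a and miR-449b-5p, which promote the formation of motile cilia, lay at −1.36 (standard error 0.95) and −2.30, and miR-34c-5p, of the same seed family, at 1.22 (standard error 0.88). The levels of miR-34c-5p were 34.9, 44.2, 31.6 and 4.23 CPM in lesions and 5.91, 17.5, 5.87 and 20.4 CPM in eutopic endometria. The lesion was thus higher in 3 animals and lower in PA6762. miR-34b-5p was near the floor, at most 2.97 CPM. miR-192-5p and miR-194-5p, which share transcripts and are enriched in glandular and intestinal epithelium, lay at −1.73 (standard error 0.40, adjusted p = 0.0870, edgeR) and −1.88 (standard error 0.53, adjusted p = 0.134, edgeR). miR-192-5p stood at 166, 113, 158 and 80.6 CPM in lesions and 636, 443, 237 and 421 CPM in eutopic endometria, with no overlap. miR-215-5p, which shares its seed, had 45.3 CPM in the lesion of PA6627 and 0.995 to 6.62 CPM in the other 7 libraries. It lay at −0.34 (standard error 0.94), at −1.38 without PA6627, and at 0.12 and 0.33 without PA5655 and PA6762.

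The X-linked cluster of miR-424 and miR-503, which targets cyclins and other cell cycle genes and is regulated in decidualizing stroma, was lower in lesions. All 8 measured members were lower in all 4 animals, against 18.1% of all miRNAs, and 7 of them without overlap, against 7.63%, with a median log2 fold change of −1.65. Of the 8, 1 had reached the level for testing through the eutopic endometria only. Members of 1 cluster are not independent of each other, here and in the other lists of clustered miRNAs. miR-424-5p stood at 685, 803, 327 and 207 CPM in lesions, against 1803, 1654, 1476 and 1146 CPM in eutopic endometria (log2 fold change −1.77, standard error 0.36, adjusted p = 0.0724, edgeR). miR-424-3p had 76.3, 24.5, 28.4 and 50.7 CPM in lesions and 197, 84.9, 189 and 233 CPM in eutopic endometria (−2.02, standard error 0.36, adjusted p = 0.0643, edgeR). The pair differences of both strands kept within a narrower range than those of the epithelial miRNAs, from −2.47 to −1.04 and from −2.72 to −1.37. miR-450b-5p, miR-542-3p and miR-503-3p lay at −1.49, −1.53 and −1.93. miR-503-5p lay at −1.92, with pair differences from −4.35 in PA6762 to −0.34 in PA6303.

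miRNAs that lie within the HOX gene clusters differed in sign among themselves. miR-196a-5p, from the HOXB and HOXC clusters and a repressor of HOX genes, stood at 47.2, 349.7, 175 and 74.4 CPM in lesions, against 14.1, 25.6, 27.02 and 24.6 CPM in eutopic endometria. Every lesion lay above every eutopic endometrium, and the log2 fold change was 2.44 (standard error 0.47, adjusted p = 0.0643, edgeR). miR-615-3p, from HOXC, had 0.820, 7.17, 5.501 and 3.48 CPM in lesions and 0, 0.301, 0.587 and 0.293 CPM in eutopic endometria. This rested on 83 counts in lesions and 6 in eutopic endometria, pooled over the animals, a scaled ratio of 14.5 that was not tested.

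miR-196b-5p, from HOXA, was lower, at 4173, 2269, 1003 and 2182 CPM in lesions against 4675, 5757, 6491 and 4558 CPM in eutopic endometria. The groups did not overlap, although the pair of PA5655 differed by −0.16 only (log2 fold change −1.31, standard error 0.44, adjusted p = 0.219, edgeR). miR-196a-5p and miR-196b-5p have nearly the same sequence, so that reads may have been counted for either. miR-10b-5p, from HOXD, was the second most abundant miRNA, with 135895 to 335804 CPM in lesions and 148825 to 386985 CPM in eutopic endometria, and lay at −0.09 (standard error 0.26).

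**Figure D2:**
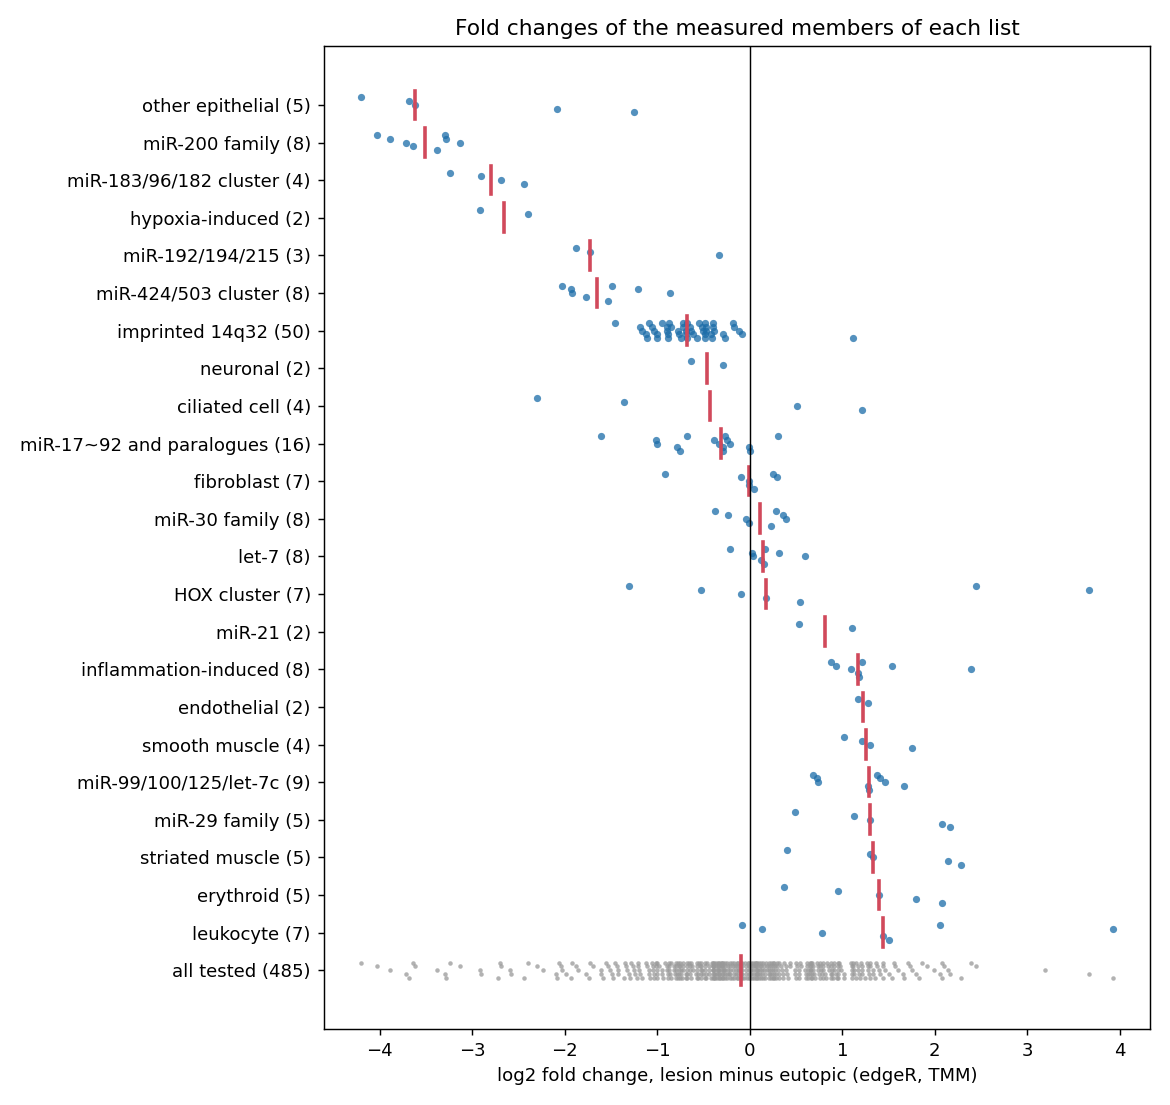
log2 fold change, lesion minus eutopic endometrium, of the measured members of each list (blue points, number in parentheses) and of all 485 miRNAs (grey points), with the median as a red bar. The miR-200 family lies between −4.03 and −3.13, the list of miR-99, miR-100, miR-125 and let-7c lies wholly above 0, and the HOX cluster list spans −1.31 to 3.66.

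The miR-29 family, which represses collagens and other matrix genes, was higher in lesions. The median log2 fold change of its 5 measured members was 1.30, and 4 of the 5 were higher in all 4 animals, against 14.8% of all miRNAs. miR-29c-3p stood at 295, 432, 209 and 244 CPM in lesions, against 243, 98.8, 50.1 and 16.7 CPM in eutopic endometria. The lesions differed little from each other, and most of the spread lay in the eutopic endometria, of which that of PA5655 exceeded the lesion of PA6627. The difference was 2.08 in log2 (standard error 0.61, adjusted p = 0.154, edgeR). miR-29c-5p had 7.38 to 16.6 CPM in lesions and 1.32 to 4.22 CPM in eutopic endometria, with no overlap (2.16, standard error 0.51, adjusted p = 0.0870, edgeR). miR-29b-3p and miR-29a-3p lay at 1.30 and 1.13, and the pairs of PA5655 differed by 0.10 and −0.05.

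miR-21-5p, which is induced by STAT3 and widely tied to fibrosis, stood at 24467, 39983, 53653 and 17514 CPM in lesions, against 21913, 13409, 12160 and 12000 CPM in eutopic endometria. The lesion was higher in all 4 animals, from 0.16 in PA5655 to 2.14 in PA6627 on the log2 scale, while the lesion of PA6762 lay below the eutopic endometrium of PA5655. The log2 fold change was 1.10 (standard error 0.39, 95% interval 0.17 to 2.04, adjusted p = 0.229, edgeR). miR-21-3p, its passenger strand, had 870.3, 1272, 2318 and 351 CPM in lesions and 826, 666, 583 and 639 CPM in eutopic endometria (0.53, standard error 0.50). In PA6762 the strands thus differed in sign, at 0.55 for miR-21-5p and −0.87 for miR-21-3p.

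Among the 10 most abundant miRNAs, miR-22-3p, a widely expressed miRNA with a role in cardiac muscle, had no overlap between the tissues. It stood at 21771, 26613, 34186 and 23938 CPM in lesions, against 14938, 11744, 9643 and 8284 CPM in eutopic endometria (log2 fold change 1.27, standard error 0.30, adjusted p = 0.0870, edgeR). miR-26a-5p lay at 0.75 (standard error 0.37) and was higher in the lesion of 3 animals. Apart from miR-143-3p, miR-10b-5p, miR-10a-5p and miR-21-5p, the other 4 lay between −0.15 and 0.06. miR-10a-5p, from HOXB, lay at 0.54 (standard error 0.33), and at −0.03 with library totals.

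Of 4 smooth muscle miRNAs, all made from 1 transcript, miR-143-3p and miR-145-5p were higher in the lesion of all 4 animals, but by very different amounts, and miR-143-5p and miR-145-3p in that of 3. miR-143-3p, the most abundant miRNA, stood at 722634, 298545, 104221 and 808808 CPM in lesions, against 366718, 283038, 59855 and 61789 CPM in eutopic endometria. The pair of PA6762 differed by 3.71 on the log2 scale and that of PA6303 by 0.08 (log2 fold change 1.30, standard error 0.61, adjusted p = 0.275, edgeR). miR-145-5p had 5588, 1571, 1402 and 8983 CPM in lesions and 2010, 1492, 390.2 and 693 CPM in eutopic endometria (1.75, standard error 0.59, adjusted p = 0.219, edgeR). Without PA6762 the fold changes were 0.57 for miR-143-3p and 1.09 for miR-145-5p. The other strands, miR-143-5p and miR-145-3p, lay at 1.02 (standard error 0.54) and 1.21 (standard error 0.69), with pair differences of −0.31 and −0.35 in PA6303. In that animal the median of the 4 was −0.12, and when all 24 libraries were scaled together each of the 4 was higher in 3 of the 4 animals only, with −0.04 for miR-143-3p and for miR-145-5p in PA6303.

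The striated muscle miRNAs varied most between animals. miR-133a-3p, which acts with miR-1 in cardiac and skeletal muscle and is also present in smooth muscle, stood at 1175, 73.6, 43.6 and 1372 CPM in lesions, against 439, 303, 6.85 and 4.40 CPM in eutopic endometria. The lesions of PA5655 and PA6762 were high, and so were the eutopic endometria of PA5655 and PA6303, so that the pair differences ran from −2.04 in PA6303 to 8.21 in PA6762. The log2 fold change of 2.14 had a standard error of 1.64, and was 0.75 without PA6762. miR-133b behaved in the same way, with 3.18 to 41.8 CPM in lesions and 0 to 19.03 CPM in eutopic endometria. miR-1-3p lay at 1.33 (standard error 1.66) and at −0.05 without PA6762. The summed level of the 5 measured striated muscle miRNAs was 69.1 to 1869 CPM in lesions and 8.51 to 737 CPM in eutopic endometria. miR-206 and miR-208b-3p, which are confined to striated muscle, had 0 counts in all 8 libraries. A further member of the list, miR-499a-5p, had 4.97 to 10.7 CPM in lesions and 2.35 to 9.19 CPM in eutopic endometria. It was higher in the lesion of all 4 animals, by a small amount (0.40, standard error 0.41).

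The list of miR-99, miR-100, miR-125 and let-7c, miRNAs of clustered transcripts abundant in mesenchymal cells, was higher in lesions. All 9 members had a positive log2 fold change, against 222 of all 485 miRNAs, with a median of 1.29. Of the 9, 7 were higher in all 4 animals, against 14.8% of all miRNAs, and 0 passed the test. let-7c-5p stood at 10980, 4235, 3488 and 14453 CPM in lesions and 6194, 3841, 1519 and 783 CPM in eutopic endometria (1.47, standard error 0.68). miR-99a-5p and miR-125b-5p, from the same transcript as let-7c-5p or a paralogous one, lay at 1.67 and 1.40. All 3 had their largest pair difference in PA6762, from 3.47 to 4.28, and at 0.14 to 0.56 in PA6303. Without PA6762 let-7c-5p lay at 0.67, miR-99a-5p at 0.89 and miR-125b-5p at 0.73. PA6762 and PA6303 also had the largest and the smallest pair difference of miR-143-3p, and whether muscle in the samples enters these values was not tested. miR-100-5p, whose pair differences ran from 0.19 to 2.11, lay at 1.37 (standard error 0.38), and miR-99b-5p at 0.74 (standard error 0.25).

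Of the let-7 and miR-30 families, 8 members each, none differed by 1 or more on the log2 scale. Their medians were 0.14 and 0.11. The 7 fibroblast miRNAs had a median of −0.01, and miR-199b-5p was lower in all 4 animals (−0.92, standard error 0.33). miR-140-3p was higher in all 4, at 0.25 (standard error 0.28), and lay at −0.31 with library totals. The 16 members of the miR-17~92 cluster and its paralogues, which promote proliferation, had a median of −0.31, and 13 lay within 1 of 0. Of the 16, 4 had reached the level for testing through the eutopic endometria only, so that a lower lesion was favoured. In PA6762 the median of the 16 was −1.42, against −0.29 to 0.12 in the other 3 animals.

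The medians of the leukocyte and the inflammation lists were positive in 3 animals and negative in PA5655, while single leukocyte miRNAs divided the animals in other ways. The myeloid miR-223-3p stood at 26.2, 92.9, 191 and 20.1 CPM in lesions, against 34.8, 17.5, 48.4 and 5.57 CPM in eutopic endometria (log2 fold change 1.51, standard error 0.53, adjusted p = 0.219, edgeR). miR-142-5p, made throughout the haematopoietic lineage, had 643, 8103, 2702 and 490.2 CPM in lesions and 1218, 447, 1140 and 180.1 CPM in eutopic endometria (1.44, standard error 0.80). The lesion of PA6303 held most of it, as it did of the lymphocyte miRNA miR-150-5p, at 1767 CPM against 113 to 317 CPM in the other 3 lesions. miR-142-3p, the other strand of miR-142, had 55.0, 618, 181 and 16.2 CPM in lesions and 109.6, 37.3, 89.1 and 20.2 CPM in eutopic endometria. It was lower in the lesions of PA5655 and PA6762 (0.78, standard error 0.87, and −0.13 without PA6303). miR-342-3p, a lymphocyte miRNA, was lower in the lesion of 3 animals, by 0.12 to 0.42, and higher by 1.38 in PA6303 (0.13, standard error 0.40). It lay at −0.30 without PA6303 and at −0.43 with library totals. The passenger strand miR-223-5p had 43 counts in lesions and 2 in eutopic endometria, pooled over the animals, a scaled ratio of 22.6 that was not tested.

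miR-146a-5p and miR-146b-5p, which dampen NF-kB signalling, showed the same animals apart. miR-146a-5p stood at 123, 3124, 393 and 93.5 CPM in lesions, against 272, 80.4, 39.7 and 28.3 CPM in eutopic endometria. The lesion was higher in 3 animals, by 5.28 in PA6303, and lower in PA5655 by 1.14 (log2 fold change 2.39, standard error 1.11, adjusted p = 0.275, edgeR). miR-146b-5p had 1273, 11479, 8124 and 1690 CPM in lesions and 2019, 677, 1620 and 1168 CPM in eutopic endometria (1.53, standard error 0.82). Without PA6303 these were 1.35 and 0.69. miR-155-5p, of activated lymphocytes and macrophages, lay at 0.88 (standard error 0.67), with higher lesions in PA6303 and PA6627 and lower ones in PA5655 and PA6762. miR-132-3p lay at 1.10 (standard error 0.51). The median of the 8 inflammation-induced miRNAs was −0.38 in PA5655 and 1.37 to 2.13 in the other 3 animals. The endothelial miR-126-3p and miR-126-5p followed the same division, at −0.16 and −0.15 in PA5655 and 1.26 to 1.96 in the other 3 (log2 fold changes 1.17 and 1.28, adjusted p = 0.219 and 0.217, edgeR).

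**Figure D3:**
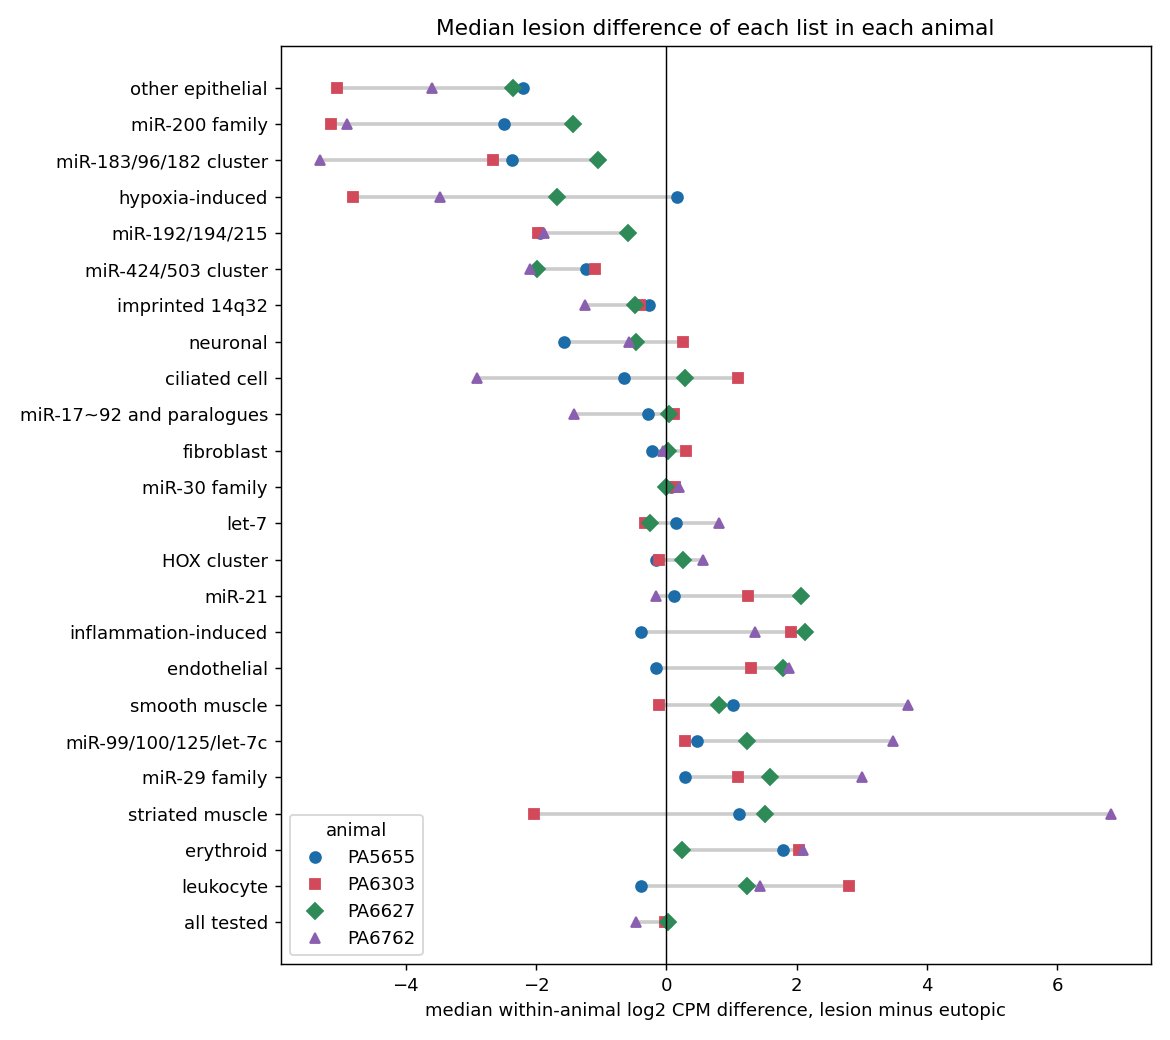
Median within-animal log2 CPM difference, lesion minus eutopic endometrium, of each list in each of the 4 animals (one symbol per animal; grey line, lowest to highest). The list of miR-424 and miR-503 stays between −2.09 and −1.10, while the striated muscle list runs from −2.04 in PA6303 to 6.82 in PA6762.

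miR-210-3p and miR-210-5p, both from the transcript that hypoxia-inducible factor activates, were lower in the lesion of 3 animals. miR-210-3p stood at 17.2, 6.92, 90.5 and 6.22 CPM in lesions, against 16.4, 183, 173 and 105 CPM in eutopic endometria. The eutopic endometrium of PA5655 lay within the range of the lesions, and the pair of that animal differed by 0.07 on the log2 scale, against −4.68, −0.93 and −4.03 in the others. It lay at −2.40 (standard error 0.96, adjusted p = 0.255, edgeR), and miR-210-5p at −2.92.

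The miRNAs of the imprinted region that is 14q32 in humans, expressed from the maternal chromosome, were lower by a small amount. Of 50 measured members 49 had a negative log2 fold change, from −1.45 to −0.08, against 263 of all 485 miRNAs. The median was −0.68 against −0.09 for all miRNAs. In single animals the median was −0.27, −0.41, −0.48 and −1.26. Of the 50, 22 were lower in all 4 animals, against 18.1% of all miRNAs, and 5 had reached the level for testing through the eutopic endometria only. miR-411-5p stood at 1883, 1288, 1585 and 1643 CPM in lesions and 2927, 3168, 3230 and 2467 CPM in eutopic endometria, with no overlap (−0.89, standard error 0.27, adjusted p = 0.182, edgeR). The abundant miR-127-3p lay at −0.40 (standard error 0.26). The exception, miR-655-3p, had at most 5.501 CPM and lay at 1.12. Members of the region come from shared transcripts and are not independent of each other.

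Among the miRNAs that belong to no list, 2 of the 10 largest positive differences by the naming rule were miR-664a-3p, processed from a small nucleolar RNA, and miR-139-5p, an intronic miRNA of PDE2A. miR-664a-3p had 64.8, 99.1, 105 and 135 CPM in lesions and 48.2, 43.1, 23.1 and 16.6 CPM in eutopic endometria, with no overlap (1.71, standard error 0.49, adjusted p = 0.1504, edgeR). miR-139-5p had 20.9, 64.5, 85.1 and 24.4 CPM in lesions and 15.4, 23.5, 9.99 and 9.97 CPM in eutopic endometria (1.56, standard error 0.49). miR-574-3p and miR-138-5p were named after their values were seen. The levels of miR-574-3p were 238, 442, 507 and 374 CPM in lesions and 136, 181, 108 and 138 CPM in eutopic endometria, a narrow range in either tissue (1.44, standard error 0.35, adjusted p = 0.0897, edgeR). miR-138-5p reached 28.9 CPM in the lesion of PA6303 and 2.24 to 3.91 CPM in the other 3, against 0.196 to 1.31 CPM in eutopic endometria.

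miRNAs of organs where a lesion can lie or that could be sampled with it were checked. None of 8 gonadal miRNAs was measured, with at most 7 counts in a library, and the liver miRNA miR-122-5p had at most 1. Of 4 neuronal miRNAs 2 were measured, with a median log2 fold change of −0.47. No miRNA is specific to endometrium, so that the label of the eutopic samples was checked only through the epithelial miRNAs, which were present in all 4.

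The animals differed in how far their tissues stood apart. The median absolute log2 difference over the 485 miRNAs was 0.47 in PA5655, 0.57 in PA6303, 0.81 in PA6627 and 1.21 in PA6762. In PA6762, 95 miRNAs were over 2-fold higher and 180 over 2-fold lower in the lesion, against 42 and 59 in PA5655. The pair differences of any 2 animals correlated across miRNAs with Pearson's r from 0.26 to 0.54, lowest between PA5655 and PA6303 and highest between PA6627 and PA6762; miRNAs are not independent replicates.

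Whether the lesion difference was other in spontaneous than in induced disease was tested over all 24 libraries, with 527 miRNAs and a block for each animal. By the quasi-likelihood test 0 passed (0%), and 16 had an unadjusted p under 0.05. With edgeR-robust and with DESeq2 3 passed, both strands of miR-144 and miR-451a, and with limma-voom 0. miR-144-3p differed within spontaneous animals by −0.21 to 1.77 on the log2 scale and within the 8 induced animals by 1.46 to 8.08, a difference between diseases of −4.07 (standard error 1.03, adjusted p = 0.768, edgeR quasi-likelihood). For miR-451a the pairs differed by 1.91 to 2.32 in spontaneous and 2.16 to 7.66 in induced animals (difference −3.39, standard error 1.01, adjusted p = 0.946, edgeR quasi-likelihood). In both miRNAs the lesion was thus higher by more in the median induced animal, at 4.79 and 5.95, than in the median spontaneous one, at 0.02 and 2.06.

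Of the other miRNAs with the smallest p, miR-4446-3p showed no common direction in spontaneous animals, from −1.98 to 2.15, and lay from −6.56 to −1.11 in induced ones. Its difference between diseases was 3.38 (standard error 1.13). miR-203a-3p lay at −3.59 in spontaneous and −1.27 in induced disease, a difference of −2.33 (standard error 0.83, adjusted p = 0.956, edgeR quasi-likelihood). miR-577, miR-194-5p and miR-204-5p had differences between diseases of −1.99, −1.31 and −1.25, miR-497-3p of −1.79 and miR-652-3p of 1.27. miR-204-5p was lower in the lesion of 4 of 4 spontaneous animals and higher in that of 5 of 8 induced ones. None of these differences passed the adjustment by any tool.

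**Figure D4:**
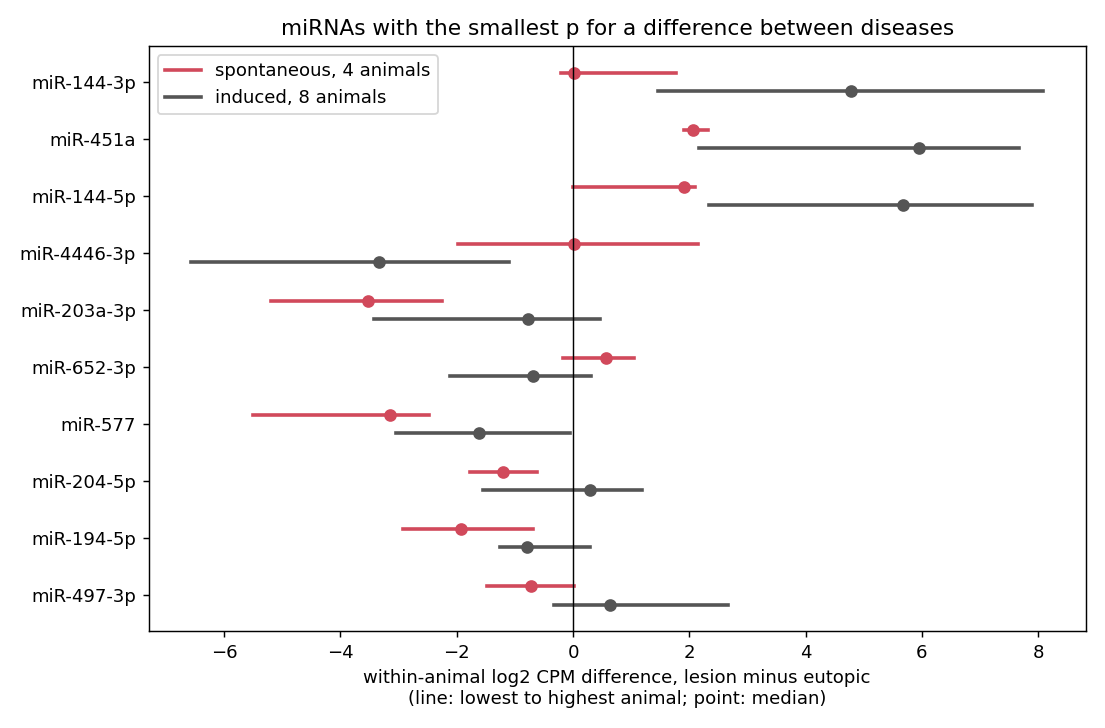
Within-animal log2 CPM difference, lesion minus eutopic endometrium, for the 10 miRNAs with the smallest p for a difference between diseases, in 4 spontaneous (red) and 8 induced animals (grey); lines run from the lowest to the highest animal and points are medians. The ranges of miR-144-3p overlap between 1.46 and 1.77, and by the quasi-likelihood test none of the 10 passed.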

How the data were processed

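Small RNA libraries (Illumina TruSeq) were made from total RNA of lesion and eutopic endometrium. The authors trimmed reads with Trim Galore 0.3.3, mapped them to the human miRNAs of miRBase 22 with miRDeep2 0.0.7 and deposited raw counts per mature miRNA and precursor, which they tested by the edgeR-robust method (edgeR 3.22.5). How many mismatches were allowed and how reads matching several miRNAs were treated is not given in the sources used here. Baboon miRNAs with a sequence other than the human can be missed, and near-identical miRNAs (miR-196a and miR-196b, miR-141 and miR-200a, miR-133a and miR-133b, members of the let-7 family) may share reads.

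The 2888 deposited rows name 2656 mature miRNAs, of which 168 stand under several precursors, each then represented by its precursor of highest total. Groups came from the labels, and tissues were paired by the animal named in them. Deviations from the tissue means correlated within animals at 0.29, 0.01, 0.55 and −0.18 in PA5655, PA6303, PA6627 and PA6762. No library was a copy of another (smallest chi-square per degree of freedom within a group 359). Each group is 4 animals with 1 library per tissue. The p-values of the tests blocked by animal measure how far the within-animal differences vary between these animals.

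Counts of the 485 miRNAs that reached 2 CPM in 2 or more of the 8 libraries were tested in R 4.3.3 with edgeR 4.0.16 (TMM, robust quasi-likelihood test, animal as a block, Benjamini-Hochberg adjustment, threshold 0.05). Standard errors were taken from the fold change and its F statistic. Pair differences used a prior count of 1 on the log2 CPM scale and were tested by two-sided exact sign-flip permutation. The difference between diseases was an interaction over all 24 libraries. The code was tested on simulated data. Alternatives used DESeq2 1.42.0, limma 3.58.1, other scalings, filters and precursor handling, and left out each animal. Ratios of counts pool the reads of the animals, ignore the pairing and are given as a description only.

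The members and the 25 lists were chosen with earlier results of these data known. Named were the miRNAs past the threshold, the 10 most abundant, the 10 largest positive and 10 largest negative differences of 1 direction in all 4 pairs at an average log2 CPM of at least 3, both miR-21 strands, up to 4 members per list by abundance, and the 10 smallest p of the interaction. Other members of the lists, such as miR-223-5p, miR-615-3p and miR-100-5p, were named after their values were seen. No miRNA sequences were used here.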

Additional observations from a re-analysis of the deposited data

Results flagged for a closer look

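In 9 of 172 groups of 4 libraries checked (86 named miRNAs in 2 tissues), 1 library stood apart from the other 3 by more than Dixon's 95% limit on the log2 scale; chance flags about 1 in 20 groups. In the lesions, miR-183-3p had 0.869 CPM in PA6627 and 0 CPM in the others. miR-34c-5p had 4.23 CPM in the lesion of PA6762 against 31.6 to 44.2 CPM in the others, and miR-204-5p, an intronic miRNA of TRPM3, had 75.5 CPM in that of PA5655 against 175 to 204 CPM.

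In the eutopic endometria, that of PA6627 had 15752 CPM of miR-486-5p against 189.7 to 286 CPM in the others, and 277 CPM of miR-144-3p against 4.22 to 5.72 CPM. The eutopic endometrium of PA6303 had 50.3 CPM of miR-450b-5p against 65.6 to 67.9 CPM. That of PA5655 had 0.656 CPM of miR-210-5p against 6.62 to 7.24 CPM, and 14.1 CPM of miR-196a-5p against 24.6 to 27.02 CPM. The eutopic endometrium of PA6762 had 347 CPM of miR-342-3p against 189.5 to 206 CPM in the others. The lesion of PA6627 was also the highest of the 4 in both erythroid miRNAs, at 30970 CPM of miR-486-5p and 329 CPM of miR-144-3p.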

How the results depend on the processing

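The count of calls depended on the test and the filter. In place of the 1 miRNA called, DESeq2 size factors, filterByExpr, counts summed over precursors, the quasi-likelihood test without its robust option and the unpaired fit with no replicate block gave 0 each. Leaving out each animal in turn gave 0 to 0. Library totals gave 14, again without miR-451a, limma-voom 16, edgeR-robust 45, DESeq2's Wald test 48 and no filter on low counts 68, while at least 10 CPM in at least 4 libraries gave 1. A fit of all 24 libraries gave 30, without miR-451a among them (adjusted p = 0.101, edgeR), and with a spontaneous animal left out, an alternative chosen after seeing the data, 69 without PA5655, 0 without PA6303, 19 without PA6627 and 0 without PA6762. For the difference between diseases edgeR-robust and DESeq2's Wald test gave 3 each, in place of 0, and the other settings 0. The cause was not tested.

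Of 1346 alternative fold changes of 86 named miRNAs, 13 changed sign. With library totals miR-144-3p was −0.17, miR-652-3p −0.066, miR-10a-5p −0.026, miR-342-3p −0.43 and miR-140-3p −0.31. miR-215-5p (−0.34) was 0.43 with limma-voom, 1.29 with no replicate block and −1.38 to 0.33 with an animal left out. miR-10b-5p was −0.30 to 0.11, miR-1-3p −0.045 to 2.69, miR-342-3p −0.30 to 0.37 and miR-142-3p −0.13 to 1.59 with an animal left out. The pairing changed no other call. With 4 pairs and a median standard error of 0.48, the quasi-likelihood test called 1 of 485 miRNAs. Even the largest negative difference, −4.20 for miR-375-3p, did not pass, so that a miRNA without a call cannot be taken as unchanged. The miRNAs near 3 counts rest on counting error.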
